A study of Homo sapiens with 36 samples.

Results

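Lesion bypass, or translesion synthesis, is the way a replication fork passes a damaged template base without removing it. The genes described here are the 7 core members of that machinery, POLH, POLI, POLK, REV1, REV3L, MAD2L2 and RAD18, out of 19775 genes represented on the arrays. They were chosen by name and function and not by a rule on their values, though with earlier results of these data known. Each was read by the probe set with the highest mean over all 36 arrays (sets ending in _x_at taken last), and the other 15 of their 22 probe sets were kept as a check. All 7 passed the filter on low values in every comparison, a log2 value above 4 on at least 3 arrays of the fit.

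When a fork stalls, the ubiquitin ligase RAD18 attaches ubiquitin to PCNA, the sliding clamp of DNA replication, and the modified clamp recruits specialised polymerases. POLH (polymerase eta), POLI (polymerase iota), POLK (polymerase kappa) and REV1 belong to the Y family of polymerases, whose open active sites accept damaged bases. REV1 also serves as the scaffold that joins the inserting enzymes to polymerase zeta, whose catalytic subunit is REV3L and whose accessory subunit is MAD2L2 (REV7). Polymerase zeta extends the primer past the lesion. POLH copies across ultraviolet cyclobutane dimers, and its inherited loss causes the variant form of xeroderma pigmentosum; POLK is known for bypassing bulky adducts on guanine.

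The cells were HK-2, a human proximal tubule epithelial line immortalized with papillomavirus oncogenes. Cultures near confluence, in serum-free medium with hormones and growth factors, were exposed to Aa (24 h or 48 h) or to Ota (24 h or 72 h), the names the labels use for the compounds. Every combination of compound and time comprised a high dose, a low dose and a vehicle control that both doses share, with 3 biological replicates in each of the 12 groups and 1 array per culture. The labels give neither full compound names nor concentrations, so whether the doses of Aa and Ota match is unknown, and the cells of all groups share 1 line and its oncogenes.

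Changes are differences of log2 values per probe set against the control of the same compound and time, ± SE, tested two-sided with limma; a change is called where the Benjamini-Hochberg adjusted p over all genes tested is under 0.05. A log2 value at or under 4 has no dependable order on this platform, so where a whole group lies there the change is given as at least so many fold. Levels of different probe sets are not compared.

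The sequence just upstream of the start is shown for the 4 members with an NRF1 or ETS match there. The other members, of which some also changed, had no such match and are not shown. Each run is the 250 bases before the RefSeq start site on GRCh38.p14, 5′ to 3′ on the gene's strand, with capitals marking matches to the NRF1 motif (GCGCA, any base, GCGC) or the ETS motif CCGGAAGT on either strand.
POLH, chr6:43575935-43576184, plus strand: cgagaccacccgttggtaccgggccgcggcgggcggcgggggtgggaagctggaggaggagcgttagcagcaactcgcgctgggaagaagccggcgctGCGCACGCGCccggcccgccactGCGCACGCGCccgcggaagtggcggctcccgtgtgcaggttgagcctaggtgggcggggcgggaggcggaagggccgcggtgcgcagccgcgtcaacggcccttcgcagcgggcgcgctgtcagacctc
RAD18, chr3:8963473-8963722, minus strand: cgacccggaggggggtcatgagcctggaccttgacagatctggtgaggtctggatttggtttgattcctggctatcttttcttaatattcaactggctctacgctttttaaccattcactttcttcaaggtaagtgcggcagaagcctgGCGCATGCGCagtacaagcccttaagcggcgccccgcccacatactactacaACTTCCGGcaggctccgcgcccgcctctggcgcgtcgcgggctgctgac
REV1, chr2:99490018-99490267, minus strand: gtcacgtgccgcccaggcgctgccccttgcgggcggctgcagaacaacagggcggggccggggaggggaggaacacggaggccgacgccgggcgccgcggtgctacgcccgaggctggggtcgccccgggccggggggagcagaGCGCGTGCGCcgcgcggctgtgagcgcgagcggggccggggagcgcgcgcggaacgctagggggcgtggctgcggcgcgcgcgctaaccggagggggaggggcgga
POLI, chr18:54269324-54269573, plus strand: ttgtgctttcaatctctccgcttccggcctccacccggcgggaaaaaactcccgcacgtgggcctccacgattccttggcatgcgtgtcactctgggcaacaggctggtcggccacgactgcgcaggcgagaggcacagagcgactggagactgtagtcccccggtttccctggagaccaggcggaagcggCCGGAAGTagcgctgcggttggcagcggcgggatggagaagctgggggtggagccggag
POLH held 2 NRF1 matches, starting 152 and 129 bases upstream, and REV1 held 1, starting 106 bases upstream. RAD18 held an NRF1 match starting 101 bases and an ETS match starting 49 bases upstream, and POLI held an ETS match starting 59 bases upstream. NRF1 and ETS factors are known regulators of widely expressed genes. Of 21490 such windows of 15384 genes, 6.71% held the NRF1 motif and 4.45% the ETS motif. Windows of POLK and MAD2L2 (the first of its 2 start sites) held the GC box GGGGCGGGG, found in 20.2% of all windows, and that MAD2L2 window also held CCAAT, found in 32.4%. The core of the cAMP response element, TGACGT (8.18% of windows), the E2F motif TTTNGCGC (1.85%) and the p53 decamer (5.26%) had no match in the 9 windows of the 7 members. Matches are a description of these letters only.

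The labelled cell type was checked against its markers. Of 10 proximal tubule markers with a probe set, SLC3A1, SLC4A4, PAX8 and KRT18 exceeded 4 on all 12 control arrays, while LRP2, CUBN, GGT1, ANPEP, MME and AQP1 exceeded it on none. Of the other lists, 2 of 6 distal nephron markers (CLDN16, SCNN1A) and 3 of 5 fibroblast markers (COL1A1, DCN, LUM) exceeded 4 on all controls, against 0 of 4 endothelial and 0 of 4 leukocyte markers. Between 10055 and 10557 genes exceeded 4 on an array. Least like their replicates were the 3 high dose arrays of Ota at 24 h, with 10055 to 10216 such genes against 10406 to 10508 in their controls, and with correlations between replicates of 0.953 to 0.982 against 0.975 or more in all other groups. For RNA quality, actin control sets read at the 3′ end exceeded those at the 5′ end by 1.88 ± 0.37 (SD, n = 3) on the high dose arrays of Ota at 72 h and by 1.29 ± 0.15 on their controls. High dose arrays of Aa gave 1.25 ± 0.3 at 48 h (controls 0.86 ± 0.22) and 1.01 ± 0.33 at 24 h (controls 0.79 ± 0.1). Those of Ota at 24 h gave 1.16 ± 0.15 (controls 1.08 ± 0.24). Of the 4 proximal tubule markers tested, 3 fell with each high dose except Ota at 24 h, where all 4 fell. Of the distal nephron markers, CLDN16 was called lower with Aa high dose at both times and with Ota at 72 h, and SCNN1A with Ota at both times. Of the 3 fibroblast markers tested, COL1A1 and DCN were called lower with Aa high dose at 24 h and none at 48 h, COL1A1 was lower and LUM higher with Ota at 24 h, and LUM was higher at 72 h. The leukocyte marker ITGAM exceeded 4 on all 3 Ota high dose arrays at 24 h and on no other array, so it entered the test through the group where it is high. The part of these array and marker differences in the members' changes was not tested. The median change over all genes tested was -0.26 in Ota high dose at 24 h and -0.12 at 72 h. Giving all arrays 1 common median turned these to 0.44 and 0.24, and quantile normalization to 0.15 and 0.13. The share of called genes that were higher rose from 33.7% to 66% and 56.1% at 24 h, and from 41.5% to 60.2% and 54.9% at 72 h. For Ota low dose at 24 h it rose from 31.7% to 58.1% and 52.2%. Member results that these scalings change are marked below.

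**Figure D1:**
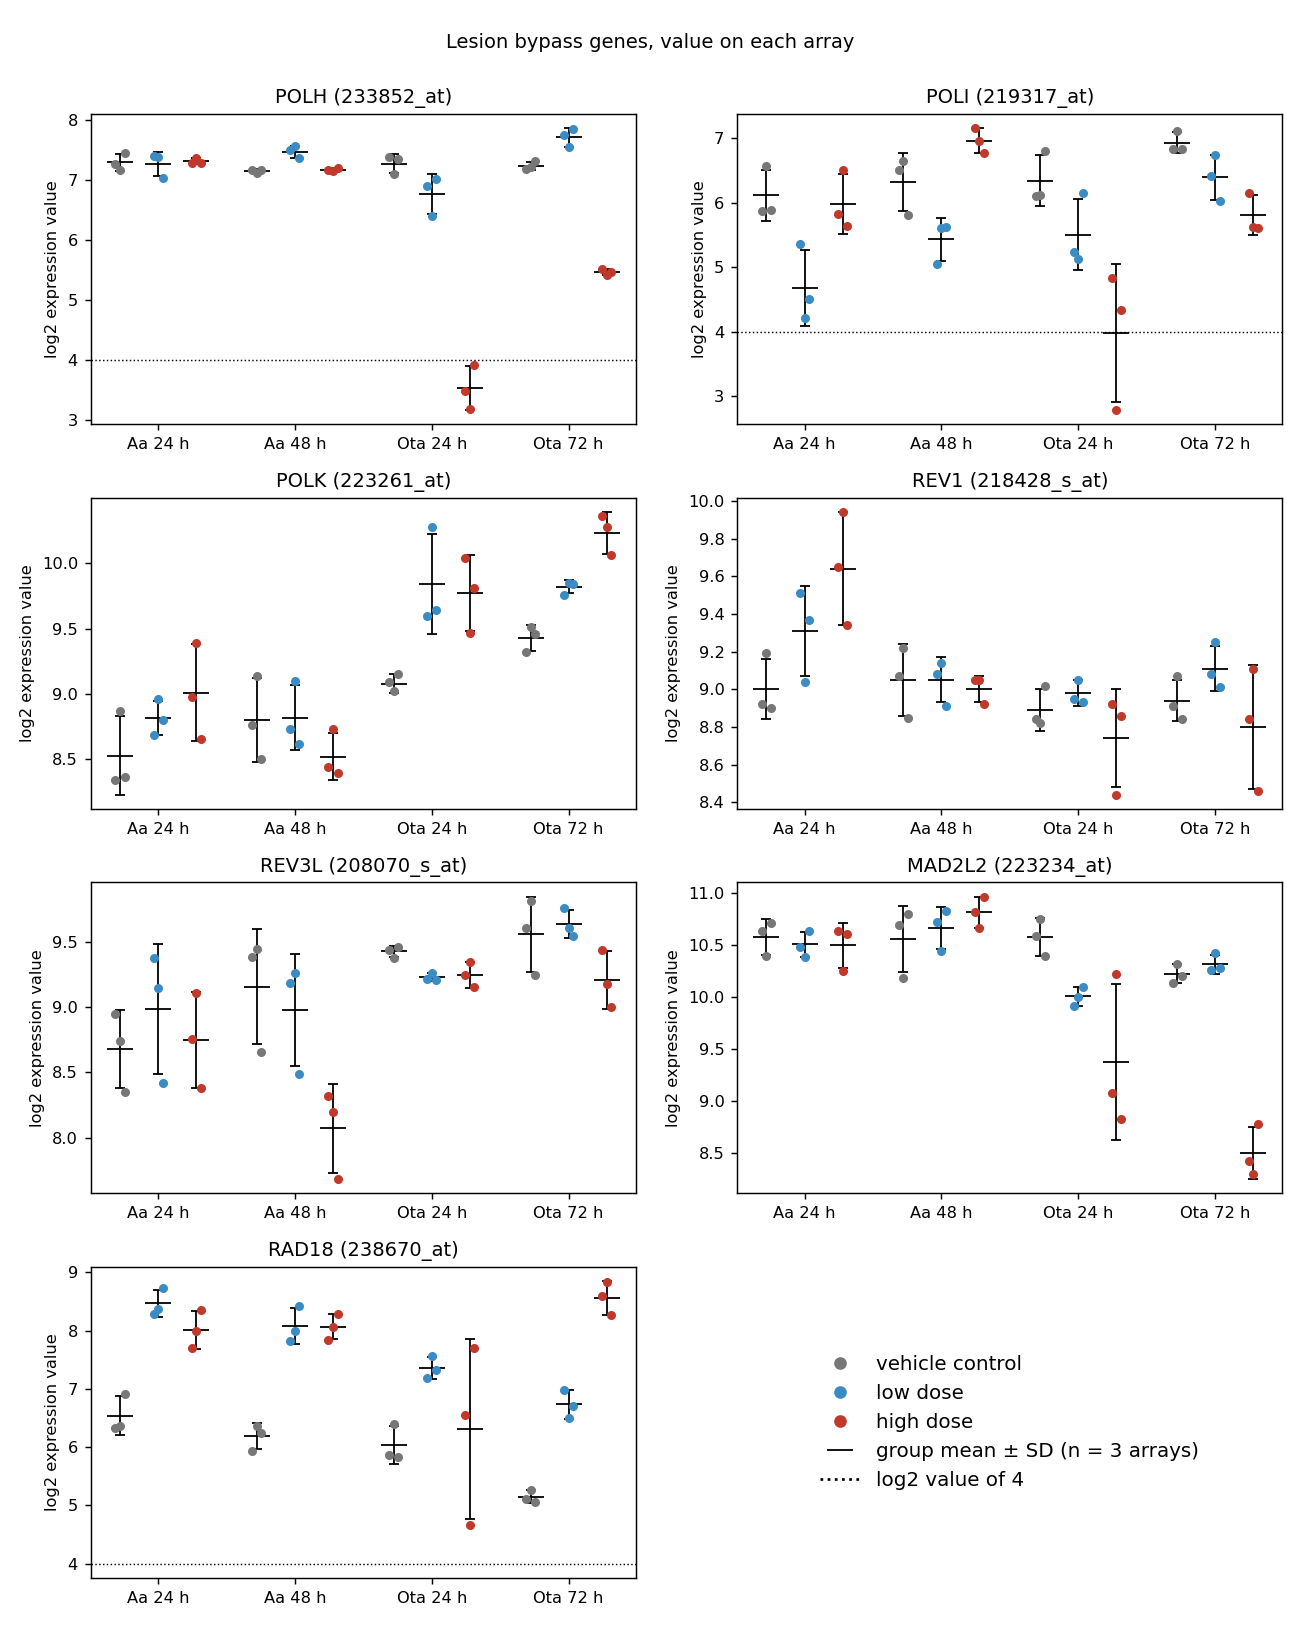
Log2 expression value (vertical axis) of each lesion bypass gene on every array, by compound and time (horizontal axis); dots are arrays, bars are mean ± SD of 3 arrays, and the dotted line marks 4. POLH dropped under 4 on all 3 arrays of Ota high dose at 24 h, and RAD18 lay at 8.26 to 8.83 with Ota high dose at 72 h against 5.06 to 5.27 in the controls.

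RAD18, the ligase that starts the pathway, was read by 238670_at. With Aa it was higher in every treated group. At 24 h the control arrays read 6.33, 6.37 and 6.92, the low dose 8.29, 8.37 and 8.73, and the high dose 7.70, 7.99 and 8.35. No treated array overlapped a control. The rise was 1.92 ± 0.21 at the low dose (adjusted p = 2.2e-05 in limma) and 1.47 ± 0.21 at the high dose (adjusted p = 4.4e-05), or 3.8-fold and 2.78-fold.

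At 48 h the Aa control arrays of 238670_at read 5.94, 6.36 and 6.25, the low dose 7.82, 8.0 and 8.43, and the high dose 7.84, 8.07 and 8.29. Again the groups did not overlap, and the rises were 1.90 ± 0.21 (adjusted p = 1.4e-05) and 1.88 ± 0.21 (adjusted p = 2.1e-06). The high dose was not called above the low dose: high minus low was -0.45 ± 0.21 at 24 h (adjusted p = 0.138) and -0.01 ± 0.21 at 48 h (adjusted p = 0.968, 95% interval -0.47 to 0.44). With replicate number as a block, which pairs the Aa samples, the 24 h difference was called (adjusted p = 0.00348), with RAD18 lower at the high dose. In bulk cultures, fewer cells of a kind and less RNA per cell cannot be told apart, here and in all results that follow.

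With Ota the RAD18 set was highest at the high dose at 72 h. Control arrays at that time read 5.11, 5.27 and 5.06, low dose arrays 6.99, 6.50 and 6.71, and high dose arrays 8.60, 8.83 and 8.26. In this set the 3 groups did not overlap and lay in order of dose. The high dose rise of 3.42 ± 0.49 (10.7-fold, adjusted p = 1.7e-05) exceeded the low dose by 1.83 ± 0.49 (adjusted p = 0.00458). The low dose rise of 1.59 ± 0.49 (adjusted p = 0.0352) lost its call with any 1 of its 6 arrays left out, with adjusted p from 0.0578 to 0.12, although the change itself stayed between 1.46 and 1.71.

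At 24 h of Ota high dose, RAD18 values scattered more than in any other group, at 6.56, 4.67 and 7.71 against controls of 5.86, 6.40 and 5.84. The change was 0.28 ± 0.49 (adjusted p = 0.64). Without high dose replicate 2 it was 1.10 (adjusted p = 0.00337), and with quantile normalization it was also 1.10 (adjusted p = 0.0348). The low dose arrays at 24 h, 7.19, 7.57 and 7.32, all lay above the controls, but the rise of 1.32 ± 0.49 was not called (adjusted p = 0.0837) except under quantile normalization (1.51, adjusted p = 0.0287) and with shifted arrays (1.46, adjusted p = 0.0354). These low dose p-values borrow their spread from the scattered high dose arrays. Leaving those 3 arrays out of the fit (chosen after seeing the data) gave that rise an adjusted p of 0.00027. The high dose effect was larger at 72 h than at 24 h by 3.14 ± 0.69 (adjusted p = 0.00137).

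The 4 RAD18 probe sets did not move together. With Aa, 238748_at followed 238670_at, rising by 1.25 ± 0.28 and 1.5 ± 0.28 at 24 h (high and low dose) and by 1.60 ± 0.28 and 1.87 ± 0.28 at 48 h (1.39 and 1.66 with values at or under 4 set to 4), all called. In contrast 224200_s_at fell at 24 h, from control arrays of 5.96, 6.58 and 6.87 to 5.71, 5.85 and 5.81 at the high dose, a change of -0.68 ± 0.19 (adjusted p = 0.00765). At the low dose it fell by 0.59 ± 0.19 (adjusted p = 0.0342). The fourth set, 223417_at, gave -0.81 ± 0.34 (adjusted p = 0.0581) and -0.49 ± 0.34 (adjusted p = 0.339). At 48 h both of these sets were lower than control at both doses without a call.

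Ota at 24 h split the RAD18 sets further. At the high dose 224200_s_at dropped to 3.78, 2.82 and 4.89 from 6.99, 6.38 and 6.65, a change of -2.84 ± 0.40 (adjusted p = 1.4e-05; -2.38 with values at or under 4 set to 4), and 223417_at fell by 1.68 ± 0.40 (adjusted p = 0.00161). At the low dose 223417_at fell by 1.27 ± 0.40 (adjusted p = 0.0427). At 72 h of high dose every set was higher than control. Set 238748_at read at least 4.35-fold higher, from controls that all lay under 4. It passed the filter for Ota largely through the treated groups, so no test is given for it there. The changes of 0.70 ± 0.40 in 224200_s_at and 0.85 ± 0.40 in 223417_at were not called (adjusted p = 0.141 and 0.073). At the low dose at 72 h, 238748_at read 4.65, 4.79 and 4.62, above its controls. Low dose means at that time were 6.06 against 5.95 in controls for 224200_s_at, and 5.16 against 5.30 for 223417_at, with overlapping arrays in both. The rise of RAD18 with Aa, and its low dose rise with Ota at 72 h, therefore rest on 2 of its 4 sets. Which stretch of the transcript each set reads is not given in the sources used here.

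**Figure D2:**
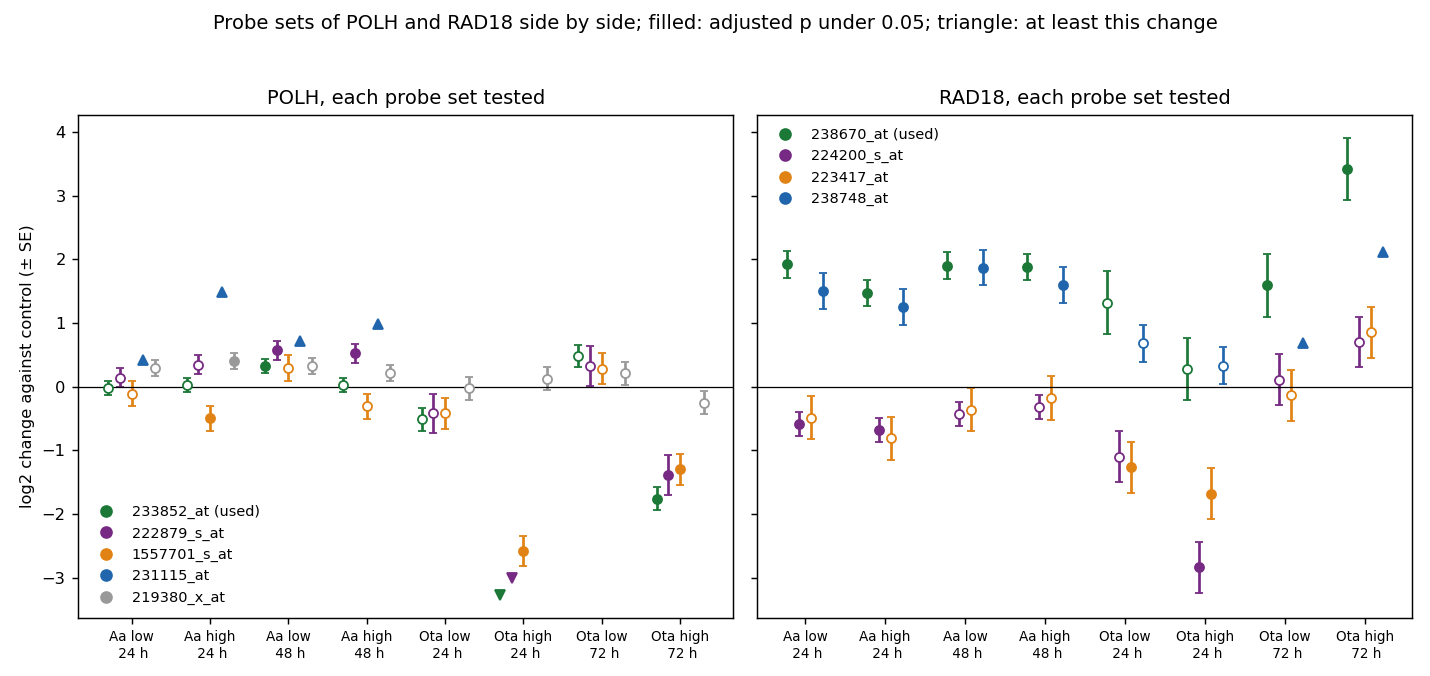
Log2 change against control ± SE (vertical axis) of each tested probe set of POLH and of RAD18 in the 8 dose comparisons (horizontal axis); filled points passed an adjusted p under 0.05, and triangles mark a change of at least that size because 1 group lay at or under 4 on all arrays. RAD18 sets 238670_at and 238748_at were higher with Aa while 224200_s_at and 223417_at were lower; 3 POLH sets fell together with Ota high dose and 219380_x_at did not.

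Among the inserting polymerases, POLH showed the largest fall of all members, and it was the fall with Ota. At 24 h the control arrays of 233852_at read 7.38, 7.09 and 7.34, the low dose 6.89, 6.39 and 7.01, and the high dose 3.48, 3.18 and 3.92. The high dose group lay apart from both others and at or under 4 on all 3 arrays. The fall was at least 9.66-fold (fitted change -3.75 ± 0.18, adjusted p = 1.9e-10). Under the other scalings it was -3.54 and -3.07, both called. The low dose change of -0.51 ± 0.18 was not called (adjusted p = 0.0758), but was with the replicate block (adjusted p = 0.0226). Replicate numbers pair these 2 groups by the data. The block covers all Ota arrays, however, and the numbers did not pair the 72 h groups.

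By 72 h of Ota, POLH had partly returned toward the controls. The control arrays read 7.18, 7.21 and 7.31, and the high dose arrays 5.52, 5.42 and 5.47, below every control yet above every 24 h high dose array. The change was -1.76 ± 0.18 (3.39-fold lower, adjusted p = 6.5e-07), smaller than at 24 h by 1.98 ± 0.26 (adjusted p = 1.6e-05; 1.51 with values at or under 4 set to 4). Low dose arrays at 72 h, 7.74, 7.54 and 7.85, all lay above the controls, with a change of 0.48 ± 0.18 that was not called (adjusted p = 0.0895). High minus low dose was -2.24 ± 0.18 at 72 h (adjusted p = 9.2e-08) and at least 6.78-fold lower at 24 h (adjusted p = 1.9e-09).

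With Aa the same POLH set stayed within 7.03 and 7.56 on all 18 arrays. High dose changes were 0.02 ± 0.11 at both 24 h (95% interval -0.21 to 0.24) and 48 h (95% interval -0.21 to 0.25). The low dose at 48 h gave 7.49, 7.56 and 7.36 against 7.17, 7.12 and 7.17, a rise of 0.32 ± 0.11 (adjusted p = 0.0297) that lost its call in 5 of 6 fits with 1 array left out (0.0544 to 0.091) and in the fit of all 36 arrays (0.11). High minus low at 48 h was -0.30 ± 0.11 (adjusted p = 0.0321), also lost in 5 of 6 such fits.

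The other POLH sets bore out the fall with Ota and differed with Aa. Set 222879_s_at fell at least 8.06-fold at 24 h of Ota high dose (adjusted p = 4.4e-08) and by 1.39 ± 0.31 at 72 h (adjusted p = 0.00113). Set 1557701_s_at fell by 2.58 ± 0.24 (adjusted p = 1.4e-07; -2.25 with values at or under 4 set to 4) and by 1.30 ± 0.24 (adjusted p = 0.000175). The exception was 219380_x_at, a set whose suffix marks probes that may cross-hybridise, at 0.12 ± 0.18 and -0.25 ± 0.18 (adjusted p = 0.581 and 0.229).

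With Aa, 231115_at read 2.74, 2.77 and 2.74 in the 24 h controls and 5.81, 5.42 and 5.22 at the high dose, 2.79-fold or more above the controls. The difference was at least 1.33-fold at the low dose at 24 h, and at least 1.98-fold and 1.65-fold at 48 h (high and low dose). This set exceeded 4 on 0 of 6 Aa control arrays and passed the filter through the treated groups, so its direction was fixed and no test is given. On all 18 Ota arrays this set lay between 2.12 and 3.12, and it was not tested there. At 48 h of Aa, 222879_s_at rose by 0.52 ± 0.15 at the high dose (adjusted p = 0.00602) and 0.57 ± 0.15 at the low dose (adjusted p = 0.00676). At 24 h of high dose 219380_x_at rose by 0.40 ± 0.13 (adjusted p = 0.0179) and 1557701_s_at fell by 0.50 ± 0.20 (adjusted p = 0.049). At 24 h of Aa high dose the last 2 sets were thus called in opposite directions, and 1557700_at lay under 4 throughout.

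POLI, read by 219317_at, fell with the low dose of Aa and not with the high dose. At 24 h the controls read 5.87, 6.57 and 5.89, the low dose 5.35, 4.21 and 4.50, and the high dose 5.82, 6.50 and 5.63. Low dose arrays lay below all others, while high dose and control arrays overlapped. The low dose change was -1.43 ± 0.32 (adjusted p = 0.00409) and the high dose change -0.13 ± 0.32 (adjusted p = 0.765), and the doses differed by 1.30 ± 0.32 (adjusted p = 0.00654).

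At 48 h the low dose was again the lowest of the 3 POLI groups, and the high dose lay above the controls. Low dose arrays of Aa read 5.05, 5.61 and 5.62, controls 6.51, 6.64 and 5.80, and high dose arrays 7.16, 6.96 and 6.77. The low dose change of -0.89 ± 0.32 (adjusted p = 0.0384) lost its call in 4 of 6 fits with 1 array left out, with adjusted p up to 0.15. The high dose change was 0.65 ± 0.32 (adjusted p = 0.0845; called under quantile normalization, 0.81, adjusted p = 0.0195). The difference between doses, 1.53 ± 0.32 (adjusted p = 0.00109), was called with each array left out in turn.

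With Ota, POLI fell at the high dose. At 24 h the high dose arrays read 4.83, 2.78 and 4.34 against 6.10, 6.11 and 6.80, with no overlap. The change was -2.36 ± 0.41 (adjusted p = 0.000118; -1.95 with values at or under 4 set to 4). At 72 h the arrays read 6.15, 5.62 and 5.61 against 6.83, 7.11 and 6.83, a change of -1.13 ± 0.41 (adjusted p = 0.025). This call was lost without control replicate 2 (adjusted p = 0.0728) or high dose replicate 2 or 3 (both 0.0707), with shifted arrays (-0.79, adjusted p = 0.0666) and with quantile normalization (-0.54, adjusted p = 0.355). The low dose changes of -0.84 and -0.53 were not called.

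The second POLI set, 238992_at, lay near the floor and gave another picture. With Aa high dose at 24 h it read 5.48, 4.98 and 4.60 against 3.33, 3.80 and 3.77, at least 2.03-fold higher. Only 1 of the 6 Aa control arrays of this set exceeded 4. It thus passed the filter largely through the treated groups, and no test is given for it with Aa. At 48 h its low dose lay 0.77 ± 0.26 above control (0.61 with values at or under 4 set to 4), where 219317_at fell. With Ota high dose it read 0.08 ± 0.18 at 24 h (adjusted p = 0.696) and fell by 0.91 ± 0.18 at 72 h (adjusted p = 0.00032; -0.74 with values at or under 4 set to 4).

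POLK, read by 223261_at, was the inserting polymerase that rose with Ota. At 24 h controls read 9.09, 9.02 and 9.15, low dose arrays 9.60, 10.28 and 9.64, and high dose arrays 10.04, 9.47 and 9.81. Every treated array lay above every control, and the doses overlapped. The rises were 0.76 ± 0.18 at the low dose (adjusted p = 0.00821) and 0.69 ± 0.18 at the high dose (adjusted p = 0.00277), and high minus low was -0.07 ± 0.18 (adjusted p = 0.77). With shifted arrays that difference turned to 0.47 and was called (adjusted p = 0.0217).

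At 72 h the POLK controls read 9.32, 9.51 and 9.46, low dose arrays 9.76, 9.85 and 9.84, and high dose arrays 10.36, 10.28 and 10.06. The 3 groups did not overlap. The high dose rise was 0.80 ± 0.18 (1.75-fold, adjusted p = 0.000866), and the low dose change of 0.39 ± 0.18 was not called (adjusted p = 0.153). The high dose rise stayed called at both times under both scalings, at 0.94 and 1.36 at 24 h and 0.83 and 1.15 at 72 h. Set 223260_s_at rose with the high dose too, by 0.46 ± 0.14 (adjusted p = 0.0108) and 0.84 ± 0.14 (adjusted p = 0.000103), but not with the low dose at 24 h (0.38 ± 0.14, adjusted p = 0.0968). A further set, 1555317_at, lay under 4.

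With Aa, POLK overlapped its controls in all 4 comparisons and none was called. The paired fit differed: with the replicate block the changes of 0.48 and 0.29 at 24 h (high and low dose) were called (adjusted p = 0.000865 and 0.032), as was -0.28 at the high dose at 48 h (adjusted p = 0.022). The difference between the high dose effects at 48 h and 24 h, -0.76 ± 0.30, had an adjusted p of 0.0797 without the block and 0.00117 with it.

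REV1, the scaffold, rose with Aa high dose at 24 h and was at control level by 48 h. Set 218428_s_at read 8.92, 9.19 and 8.90 in the 24 h controls, 9.51, 9.04 and 9.37 at the low dose, and 9.65, 9.94 and 9.34 at the high dose. High dose arrays lay above all controls, and low dose arrays overlapped them. The high dose rise was 0.64 ± 0.16 (1.56-fold, adjusted p = 0.00345) and the low dose change 0.30 ± 0.16 (adjusted p = 0.185). At 48 h high dose arrays of 9.05, 9.05 and 8.92 overlapped controls of 9.07, 9.22 and 8.85 (-0.04 ± 0.16, adjusted p = 0.831).

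The REV1 high dose effects differed between 48 h and 24 h by -0.68 ± 0.22 (adjusted p = 0.0434). That call was lost in 9 of 12 fits with 1 array left out (up to 0.112), with quantile normalization (0.0564) and with shifted arrays (0.0704); the change stayed negative throughout. All 3 sets above the floor rose with the high dose at 24 h, 222628_s_at by 0.79 ± 0.13 (adjusted p = 0.000128) and 222629_at by 1.01 ± 0.17 (adjusted p = 0.000198). Both of these also rose with the low dose at 24 h, by 0.48 ± 0.13 (adjusted p = 0.014) and 0.51 ± 0.17 (adjusted p = 0.0438). Set 222628_s_at alone among them rose with the low dose at 48 h (0.52 ± 0.13, adjusted p = 0.00594), and 243592_at lay under 4.

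With Ota, REV1 changed by -0.15 ± 0.16 at the high dose at 24 h (adjusted p = 0.426) and -0.14 ± 0.16 at 72 h (adjusted p = 0.482). The low dose gave 0.08 ± 0.16 and 0.17 ± 0.16, with no call. With shifted arrays the 24 h high dose change turned to 0.52 and was called (adjusted p = 0.00416), so no direction is given for it.

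REV3L, the catalytic subunit of polymerase zeta, fell with Aa high dose at 48 h. Set 208070_s_at read 9.39, 9.45 and 8.66 in the controls, 9.19, 9.26 and 8.49 at the low dose, and 8.32, 8.20 and 7.68 at the high dose. All high dose arrays lay below all others, and the third replicate was the lowest in each group. The high dose change was -1.10 ± 0.30 (2.14-fold lower, adjusted p = 0.00488) and the low dose change -0.18 ± 0.30 (adjusted p = 0.666). High minus low was -0.91 ± 0.30 (adjusted p = 0.0218), a call lost without low dose replicate 1 or 2 (adjusted p = 0.0761 and 0.0841) or high dose replicate 3 (0.102).

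At 24 h of Aa high dose, REV3L changed by 0.07 ± 0.30 (adjusted p = 0.861). The 48 h effect minus the 24 h effect was -1.17 ± 0.43, not called without the replicate block (adjusted p = 0.064) and called with it (adjusted p = 0.000171). The low dose change of 0.31 ± 0.30 at 24 h was also called only with the block (adjusted p = 0.0451). Set 238736_at, between 3.51 and 5.53 on all arrays, gave no called change against control.

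With Ota, REV3L moved little. At 72 h high dose arrays of 9.44, 9.18 and 9.00 overlapped controls of 9.61, 9.82 and 9.25. The change of -0.35 ± 0.14 (adjusted p = 0.0449) was -0.01 with shifted arrays (adjusted p = 0.97) and was lost in 4 of 6 fits with 1 array left out (adjusted p up to 0.221). At 24 h the change was -0.18 ± 0.14 (adjusted p = 0.298), which turned to 0.50 and was called with shifted arrays (adjusted p = 0.00873).

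MAD2L2, the accessory subunit, has only 1 probe set, 223234_at, and fell with Ota high dose. At 72 h controls read 10.14, 10.32 and 10.21, low dose arrays 10.26, 10.43 and 10.28, and high dose arrays 8.43, 8.30 and 8.78. The high dose group lay far below both others, which overlapped. The fall was 1.72 ± 0.26 on the log2 scale (adjusted p = 2.7e-05), or 3.30-fold, and the low dose change 0.10 ± 0.26 (adjusted p = 0.86). Under the other scalings the fall was called too, at -1.56 and -1.38.

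At 24 h of Ota the MAD2L2 controls read 10.59, 10.75 and 10.40, low dose arrays 9.92, 10.00 and 10.10, and high dose arrays 9.08, 10.23 and 8.83. All treated arrays lay below all controls, and high dose replicate 2 lay above the low dose arrays. The high dose fall of 1.20 ± 0.26 (adjusted p = 0.000756) shrank to -0.52 with shifted arrays (adjusted p = 0.128). The low dose change was -0.57 ± 0.26 (adjusted p = 0.165; adjusted p = 0.00689 with the high dose 24 h arrays left out of the fit). High minus low, -0.63 ± 0.26 (adjusted p = 0.0475), lost its call in 5 of 6 fits with 1 array left out and under both scalings.

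With Aa all 18 MAD2L2 arrays lay between 10.19 and 10.97, and no comparison was called. The change of 0.26 ± 0.17 with the high dose at 48 h had an adjusted p of 0.189 without the replicate block and 0.012 with it.

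**Figure D3:**
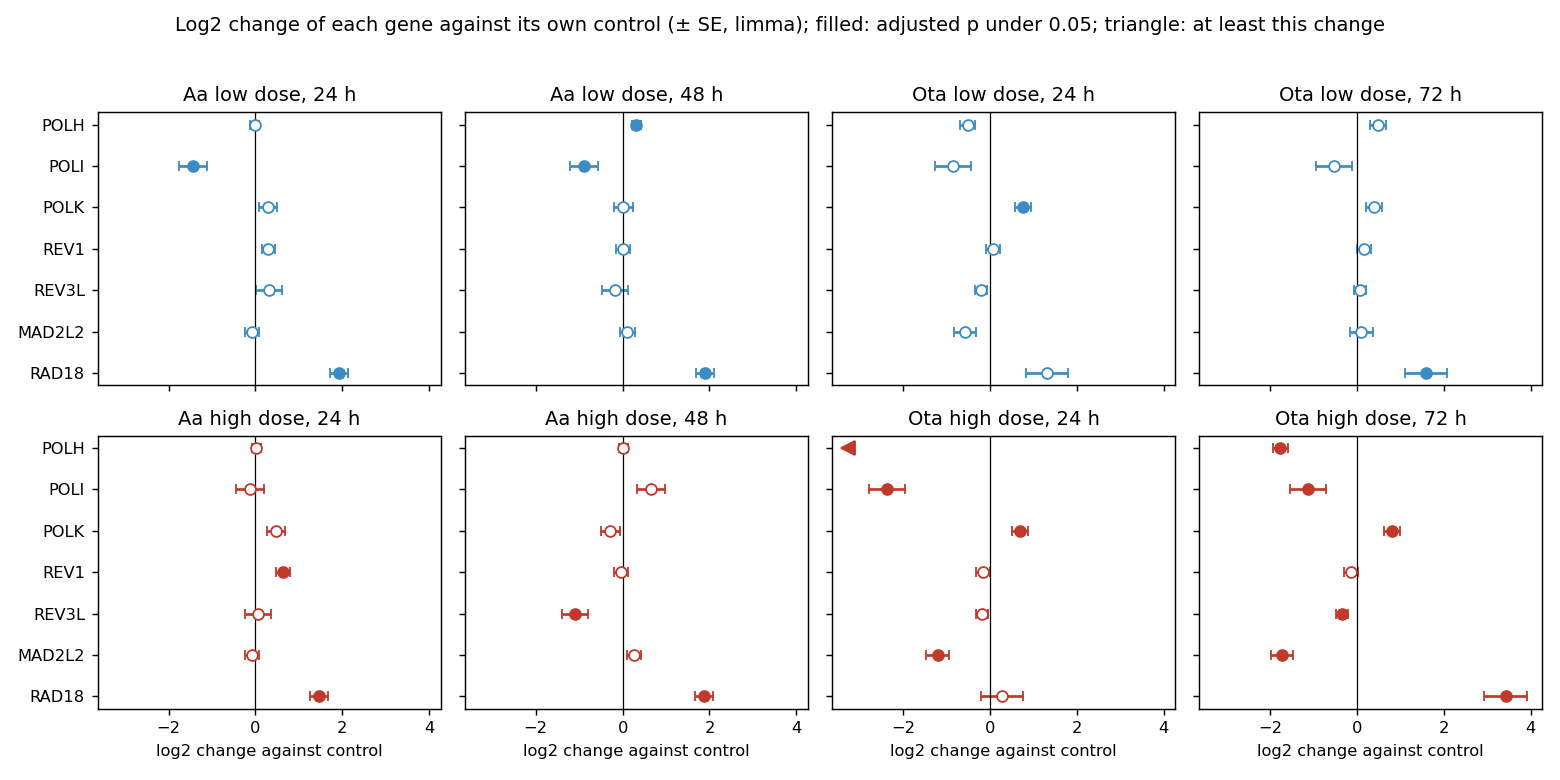
Log2 change against control ± SE (horizontal axis) of each lesion bypass gene (rows) at the low dose (upper panels) and high dose (lower panels) of each compound and time; filled points passed an adjusted p under 0.05, and the triangle marks a change of at least that size. RAD18 rose in all 4 Aa comparisons, and POLH, POLI and MAD2L2 fell while POLK rose at both times of Ota high dose.

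Counted together, 2 of 7 members were called with Aa high dose at 24 h (RAD18 and REV1 higher), where 51.3% of all genes tested were called. With the low dose at 24 h 2 were called (RAD18 higher, POLI lower) against 25.1% of all genes, and 4 with the replicate block, which called 39.4% of all genes. At 48 h the high dose called 2 (RAD18 higher, REV3L lower) against 66% of all genes, and 4 with the block (74.4%). The low dose at 48 h called 3 (RAD18 and POLH higher, POLI lower) against 37.9%. High against low dose called POLI at 24 h (27.1% of all genes; 2 members and 41.5% with the block) and POLI, POLH and REV3L at 48 h (46.5%). The change of the Aa high dose effect with time called REV1 alone (20.7% of all genes), or 5 members with the block (39.2%).

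With Ota high dose at 24 h 4 of 7 members were called (POLK higher, and POLH, POLI and MAD2L2 lower) against 64% of all genes. At 72 h 6 were called (RAD18 and POLK higher, and POLH, POLI, MAD2L2 and REV3L lower) against 63.4%. The low dose called POLK at 24 h against 14.7% of all genes (2 members and 16% with the block, POLH being the other) and RAD18 at 72 h against 17.1%. High against low dose called 3 members at 24 h (58.1% of all genes) and 4 at 72 h (58.4%). The change of the high dose effect with time called POLH and RAD18 (53.8% of all genes). Of the 6 at 72 h, POLI and REV3L lost their calls under either scaling. Given how many of all genes were called, nothing particular to the 7 is read from these counts.

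The median change of the 7 members was 0.07 with Aa high dose at 24 h and 0.02 at 48 h, against 0.03 and -0.04 for all genes. With Ota high dose it was -0.18 at 24 h and -0.35 at 72 h, against -0.26 and -0.12.

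Vehicle controls of the 2 times were compared to see whether time alone moved the members. Later against earlier controls called 0 members for Aa (1.29% of all genes) and 0 for Ota (29.8%) with limma, and 0 members had an unadjusted p under 0.05 in either. The largest such change was -0.89 ± 0.49 for RAD18 in the Ota series (adjusted p = 0.193). With the replicate block, which pairs the Aa controls, RAD18 (-0.35, adjusted p = 0.0338) and REV3L (0.48, adjusted p = 0.0123) were called there, beside 16.3% of all genes. Between the Ota controls 2 members were called with the next probe set. Leaving the scattered Ota high dose 24 h arrays out of the fit (chosen after seeing the data) also called 2, beside 38.7% of all genes.

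The 24 h high dose effects of the compounds were compared in a fit of all 36 arrays, with doses that may not match. The difference was called for 4 members, all lower with Ota (59.4% of all genes were called). The difference was -3.76 ± 0.21 for POLH (adjusted p = 3.3e-14), -2.23 ± 0.54 for POLI (adjusted p = 0.000811), -1.11 ± 0.31 for MAD2L2 (adjusted p = 0.00331) and -0.79 ± 0.23 for REV1 (adjusted p = 0.00394). With shifted arrays MAD2L2 (-0.37) and REV1 (-0.05) were not called. RAD18 gave -1.20 ± 0.56 (adjusted p = 0.0649), POLK 0.21 ± 0.28 and REV3L -0.25 ± 0.34, not called; POLK was called with shifted arrays (0.95, adjusted p = 0.00374).

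The clamp and the subunits that polymerase zeta shares with the replicative polymerase delta stood beside the members as follows. PCNA rose by 0.68 ± 0.09 and 0.25 ± 0.09 with Aa high dose at 24 h and 48 h, fell by 1.21 ± 0.14 with Ota high dose at 24 h and rose by 0.75 ± 0.14 at 72 h (adjusted p = 1.1e-05, 0.0162, 2.4e-06 and 0.00028). Its turn from lower to higher between the Ota times ran beside the changes of 0.28 and 3.42 in RAD18. POLD3 rose with Aa (0.54 ± 0.09 and 0.40 ± 0.09) and fell with Ota at 24 h (-1.40 ± 0.31, adjusted p = 0.00105), with 0.62 ± 0.31 at 72 h (adjusted p = 0.0987; called under both scalings, at 0.94 and 0.96). POLD2 fell with Ota at 72 h (-1.0 ± 0.19, adjusted p = 0.000248), where MAD2L2 fell too. It was not called elsewhere, except with the block for Aa at 48 h (0.43, adjusted p = 0.000269) and with shifted arrays for Ota at 24 h (0.98, adjusted p = 0.00054).

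The counts of the lists below stand against the shares of all genes called with the high dose, 51.3% and 66% for Aa at 24 h and 48 h, and 64% and 63.4% for Ota at 24 h and 72 h. Of the called genes 66.3% were lower with Ota at 24 h, so more lower than higher is the pattern of all genes there, and nothing particular to a list is read from its count.

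Genes that modify PCNA or switch forks gave 7 higher and 2 lower of 23 tested with Aa high dose at 24 h, and 8 higher and 5 lower at 48 h (list medians 0.13 and 0.08). RFWD3, a ubiquitin ligase of stalled forks, rose most, by 1.80 ± 0.15 and 2.38 ± 0.15, and ZRANB3, a fork-remodelling translocase that binds modified PCNA, fell most, by 2.70 ± 0.34 and 3.84 ± 0.34. The high dose of Ota gave 3 higher and 8 lower at 24 h, and 10 higher and 2 lower at 72 h. Both splits depended on scaling: quantile normalization gave 7 and 7 at 24 h and 13 and 2 at 72 h, and shifted arrays 14 and 5, and 18 and 1. UBE2N, the conjugating enzyme for the longer ubiquitin chains on PCNA, rose by 1.37 ± 0.18 at 24 h and 2.29 ± 0.18 at 72 h. RPA2, of the single-strand binding complex, fell by 3.34 ± 0.26 at 24 h, and DTL, which targets proteins on PCNA for degradation, rose by 2.58 ± 0.17 at 72 h.

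Of the other specialised polymerases, 4 of 6 tested were higher and 0 lower with Aa high dose at 24 h, and 3 higher and 1 lower at 48 h. POLQ, the polymerase of microhomology end joining, rose by 1.72 ± 0.17 and 2.26 ± 0.17 with Aa. With Ota it fell at least 11.9-fold at 24 h (adjusted p = 4.4e-10) and rose by 2.87 ± 0.24 at 72 h (adjusted p = 6.4e-08). POLM read at least 1.60-fold higher with Aa at 24 h, from controls under 4, and is 1 of the 4 counted there. It passed the filter through groups other than these controls, which favoured a rise in advance, so its call is not read as a test. POLN rose by 2.54 ± 0.26 with Ota at 24 h, and POLL, a gap-filling polymerase, fell by 2.61 ± 0.41 at 72 h (adjusted p = 4.3e-05; -2.11 with values at or under 4 set to 4). In all, 1 of 5 was higher and 3 lower with Ota at 24 h (1 and 1 under quantile normalization, 2 and 1 with shifted arrays), and 2 higher and 1 lower at 72 h.

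Subunits of the replicative polymerases were split with Aa, at 4 higher and 3 lower of 12 at 24 h and 5 and 4 at 48 h. POLE rose by 1.16 ± 0.20 and 1.60 ± 0.20, POLA2 fell by 1.58 ± 0.19 at 24 h and PRIM2 fell by 1.39 ± 0.14 at 48 h. Ota high dose gave 1 higher and 7 lower at 24 h and 3 higher and 7 lower at 72 h (median -1.05 and -0.74). Shifted arrays gave 3 and 5, and 4 and 4. PRIM1, a primase subunit, fell by 2.93 ± 0.21 at 72 h, POLA2 by 3.83 ± 0.39 at 24 h (-3.43 with values at or under 4 set to 4), POLE4 rose by 0.95 ± 0.12 at 24 h and POLA1 rose by 1.33 ± 0.17 at 72 h.

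MAD2L2 also works outside polymerase zeta, in shieldin with TP53BP1 and RIF1 at broken ends, and TRIP13 and MAD2L1BP act on such HORMA-domain proteins. Of 7 genes tested in this list, which also holds MAD2L1, 2 were higher and 1 lower with Aa high dose at 24 h, and 4 and 2 at 48 h. RIF1 rose by 1.68 ± 0.13 and TP53BP1 fell by 0.33 ± 0.11 at 24 h, and MAD2L1BP rose by 1.62 ± 0.15 and SHLD2 fell by 0.47 ± 0.14 at 48 h. For Ota high dose 6 were lower and 0 higher at 24 h (2 lower with shifted arrays), TP53BP1 by 2.79 ± 0.33. At 72 h 3 were higher and 0 lower (5 and 0 with shifted arrays), TRIP13 by 2.33 ± 0.14, where MAD2L2 itself fell.

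Checkpoint genes of stalled forks gave 6 higher and 1 lower of 10 with Aa high dose at 24 h and 4 and 1 at 48 h. RAD9A of the checkpoint clamp rose by 1.77 ± 0.32 and 2.21 ± 0.32, HUS1 of the same clamp fell by 1.33 ± 0.21 at 24 h, and CHEK1 fell by 0.44 ± 0.16 at 48 h (adjusted p = 0.0216; 0.0557 with shifted arrays). At 24 h of Ota high dose 7 were lower and 1 higher (5 and 2 under either scaling), and 3 each way at 72 h. CHEK1, the effector kinase, fell by 4.60 ± 0.26 at 24 h, TOPBP1, an activator of ATR, rose by 0.62 ± 0.19 and 1.61 ± 0.19, and HUS1 fell by 2.16 ± 0.50 at 72 h (-1.92 with values at or under 4 set to 4).

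Targets of p53 were read because POLH is among the genes p53 is known to induce. The line carries papillomavirus oncogenes, and the activity of p53 itself was not tested. With Aa high dose 9 were higher and 2 lower of 17 at 24 h, and 8 and 6 at 48 h. GADD45A rose by 1.81 ± 0.20 and 3.05 ± 0.20, CDKN1A, the cell cycle inhibitor p21, by 1.57 ± 0.19 and 2.02 ± 0.19, and ZMAT3 fell by 1.12 ± 0.20 and 1.46 ± 0.20. MDM2, the ligase of p53, changed by 0.24 ± 0.15 (adjusted p = 0.196) and fell by 0.55 ± 0.15. Under Ota high dose 2 were higher and 10 lower at 24 h, and 3 and 6 at 72 h. Both splits turned with shifted arrays, to 7 and 6 at each time; quantile normalization gave 6 and 7, and 5 and 4. CDKN1A rose by 0.65 ± 0.20 and 2.05 ± 0.20, RRM2B rose by 0.88 ± 0.23 at 24 h, ZMAT3 fell by 3.04 ± 0.35 at 24 h and CCNG1 by 2.30 ± 0.13 at 72 h, and MDM2 fell by 2.49 ± 0.33 at 24 h (-0.53 ± 0.33 at 72 h, adjusted p = 0.173).

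**Figure D4:**
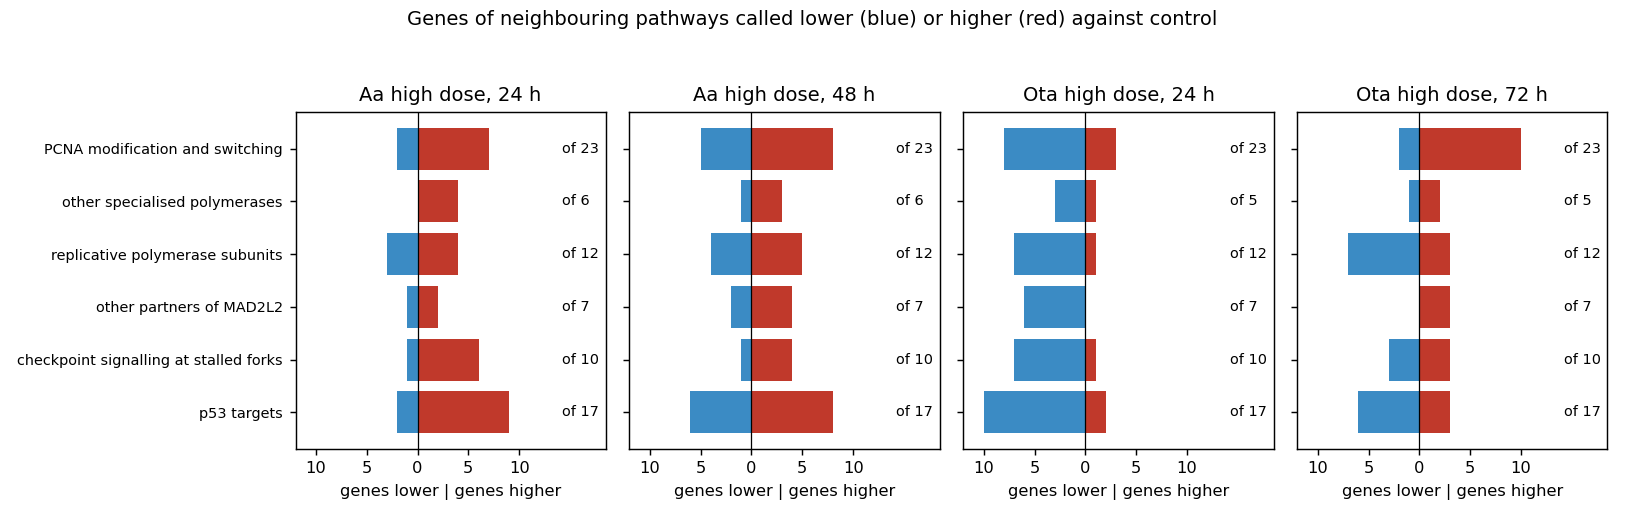
Number of genes called lower (blue, left of 0) or higher (red, right of 0) on the horizontal axis for 6 lists of neighbouring pathways (rows) with the high dose of each compound and time, beside the number tested. With Ota at 24 h more genes were called lower than higher in all 6 lists, as over all genes (66.3% of those called were lower), a split that shifted arrays turned for the PCNA list (14 higher, 5 lower), the specialised polymerases (2 and 1) and the p53 targets (7 and 6).

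The genes whose pattern was most like each member were found by Pearson correlation over the 12 group means, after subtracting each compound's own mean, among 10649 genes tested in both compounds. These are descriptions over 12 group means, with no p. POLH was most like ZNF672 (0.992), FARP2 (0.986) and JUND (0.985), and MAD2L2 most like NABP2 (0.978), ZDHHC4 (0.975) and ICAM3 (0.973). RAD18 was most like UQCC1 (0.964), EIF4EBP2 (0.961) and MOB1A (0.953), POLI most like NAF1 (0.949), ZNF7 (0.942) and DDX60L (0.939), and REV3L most like SPATA13 (0.941), HYCC2 (0.931) and PPARA (0.928). POLK was most like TRAPPC13 (0.938), KLHL36 (0.932) and SNX4 (0.929). REV1 had the lowest likeness, to PIGZ (0.907), LHX4-AS1 (0.870) and VPS33A (0.859). No member was among the 3 nearest genes of another member.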

How the data were processed

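RNA of 36 HK-2 cultures was read on 1-colour Affymetrix arrays after biotin labelling, per the labels' protocols. The authors deposited log2 values per probe set made with GCRMA, per the submitters' processing notes. Its version is not given in the sources used here, nor is the set of arrays it normalized jointly. Its background step rests on probe sequence and leaves dim sets without a dependable order. The number of arrays limits the precision, and no scan dates or detection calls were used.

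Of 54675 probe sets, 62 control sets were left out, 41091 had 1 symbol, 1801 several and 11721 none in the table used. Entrez identifiers of 41037 matched RefSeq (GRCh38.p14), with 0 symbols updated. Genes with a log2 value above 4 on 3 arrays were tested: 10972 for Aa, 11029 for Ota and 11405 over both. Group-mean models were fitted in limma 3.58.1 (R 4.3.3) to the 18 arrays of a compound (12 residual degrees of freedom) or all 36 (24), and were tested on simulated data. Bounds use the higher of 4 and each array's value. Promoter letters are from RefSeq, where all 7 members matched. Figures used matplotlib 3.10.9.

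Replicate numbers pair the samples by the data where same-numbered arrays deviated together, every correlation over 0.1: in all Aa comparisons (0.43, 0.56 and 0.38 for high dose against control at 24 h) and in Ota high dose (0.11, 0.2 and 0.23) and low dose (0.4, 0.31 and 0.41) against control at 24 h. The other comparisons did not pass (-0.06, 0.12 and 0.17 for Ota high dose at 72 h).

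The members, the gene lists and the tests were chosen with earlier results of these data known. The rule for named genes took all 7 members in every comparison, the 3 genes most like each, the called gene with the largest rise and fall in each list, and PCNA, POLD2, POLD3, CDKN1A and MDM2. Alternatives were a floor at 4, quantile normalization, arrays shifted to 1 median, no filter, all arrays in 1 fit, a replicate block, the next probe set and each array left out.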

Additional observations from a re-analysis of the deposited data

Results flagged for a closer look

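Members whose high dose effect differed between times or compounds, by a test of the difference itself in limma, were these. The effect of Ota was higher at 72 h than at 24 h for POLH by 1.98 (adjusted p = 1.6e-05) and for RAD18 by 3.14 (adjusted p = 0.00137). The effect of Aa on REV1 was lower at 48 h than at 24 h, by -0.68 (adjusted p = 0.0434). That call was lost in 9 of 12 fits with 1 array left out and under both scalings. At 24 h the effect of Ota was lower than that of Aa for POLH (-3.76), POLI (-2.23), MAD2L2 (-1.11) and REV1 (-0.79), at doses that may not match. With shifted arrays MAD2L2 and REV1 lost these calls. For RAD18 the 24 h value rests on high dose arrays of 6.56, 4.67 and 7.71. Groups of 3 arrays are too small for a test of single outlying arrays.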

How the results depend on the processing

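Of 844 changes of members under alternatives other than leaving out an array, 743 kept direction and side of the threshold or were called under neither setting, 48 gained and 33 lost a call, and 20 turned direction; among those called under neither, 49 signs turned. Of 840 with 1 array left out, 779 kept their side, 15 gained and 46 lost a call.

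The next probe set turned RAD18 with Aa at 24 h (-0.68 high, -0.59 low) and 48 h (-0.32, -0.43) and with Ota high dose at 24 h (-2.84). It turned POLI with Aa (1.39 and 0.37 at 24 h, 0.77 low dose at 48 h, -0.14 high against low at 48 h), with Ota high dose at 24 h (0.08) and in its change with time (-1.0). REV3L turned with Aa at 48 h (0.46; 0.30 high against low) and Ota at 72 h (0.34; 0.27), and REV1 with Aa low dose at 48 h (0.52) and between Ota controls (-0.67). Shifted arrays turned REV1 (0.52) and REV3L (0.50) with Ota high dose at 24 h and POLK high against low (0.47).

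Counts of members called moved as follows, with the share of all genes called under the same setting in brackets. No share is given for the next probe set or for fits with 1 array left out, and nothing about the members is read from those counts. With the replicate block they were 4 for Aa low dose at 24 h (39.4%) and Aa high dose at 48 h (74.4%), 2 for Aa high against low at 24 h (41.5%), 5 for the Aa effect over time (39.2%), 2 for the Aa controls (16.3%), and 2 for Ota low dose at 24 h (16%) and at 72 h (18.8%). The block changed no other call beyond those named here and in the results, apart from POLK, high against low dose of Aa at 48 h (adjusted p = 0.0211), MAD2L2 (0.0335) and RAD18 (0.0394) in the Aa effect over time, and POLH with Ota low dose at 72 h (0.0277). The fit of all 36 arrays gave 1 for Aa low dose at 48 h (32.6%), 2 for the Aa effect over time (16.3%), 3 for Ota low dose at 24 h (18.4%) and 2 at 72 h (20%). The Aa effect over time gave 0 under quantile normalization (20.2%), shifted arrays (19.4%) and no filter (9.92%). For Ota low dose at 24 h the count was 2 with the floor (15.7%), quantile normalization (15%) and shifted arrays (15.4%), 0 with the next probe set and 5 without the Ota high dose 24 h arrays (23.2%; chosen after seeing the data). At 72 h it was 2 with the floor (18.3%), 0 without filter (8.52%) or with the next probe set, and 2 without those arrays (25.5%). The next probe set gave 1 for Aa high against low at 48 h and 2 for the Ota controls, which were also 2 without those arrays (38.7%). With 1 array left out, counts ran from 1 to 2 for Aa low dose at 48 h and Aa high against low at 24 h, 1 to 3 for high against low at 48 h, 0 to 3 for the Aa effect over time, and stayed 0 for Ota low dose at 72 h. The cause was not tested. Signal near the floor limits 238992_at, 231115_at and 238736_at.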
